A study of Homo sapiens with 6 samples.

Results

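The E2F transcription factors and the RB pocket proteins control entry into S phase. This account follows 10 of their genes: the activator E2Fs E2F1, E2F2 and E2F3, the repressor E2Fs E2F4, E2F7 and E2F8, the pocket protein genes RB1, RBL1 and RBL2, and TFDP1, which encodes an E2F dimer partner. They were chosen by symbol, with earlier results of these data known, and all 10 were found among the 17202 genes of the deposited table. RNA-seq gave a value per gene in DND41 cells, an established human T-cell acute lymphoblastic leukaemia line. Of 6 libraries, 3 came from cells given MB1-47, a compound that the series title calls a mitochondrial uncoupler, at 4 mM as the labels write it, and 3 from cells given the solvent DMSO. Millimolar is a high concentration for a compound in culture and may be a slip for micromolar, so the dose is uncertain. Both groups were kept for 24 h in RPMI with serum, and the labels name no other agent or genetic change. Beyond plating in triplicate nothing says how separate the replicates were, so a p-value reflects only how far these libraries differ, in part perhaps for technical reasons. The line is a single leukaemia's culture, so the values describe that line.

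E2F proteins bind DNA as dimers with a DP protein and switch on genes for DNA synthesis. In resting cells the pocket proteins hold them: RB1 binds the activators, while RBL1 (p107) and RBL2 (p130) mainly bind E2F4 and E2F5 and, with the MuvB proteins, form the DREAM repressor complex. Cyclin-dependent kinases (CDKs) of G1 phosphorylate the pocket proteins and release the E2Fs. E2F7 and E2F8 act without a DP partner and repress E2F targets later in the cycle. In T-cell leukaemias this circuit is best known for loss of the CDK inhibitor CDKN2A upstream of RB1.

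The deposited values are normalized counts, and each change is MB1-47 minus DMSO on the scale of log2(value + 1), a log2 fold change with its SE, from limma fitted over 13465 genes with Benjamini-Hochberg adjustment at 0.05. Group levels are mean ± SD (n = 3). Of these genes, 38.1% passed, 18.3% higher and 19.8% lower, and the median change was 0.02. When library totals were made equal the median was 0.15 and 61.8% of the passing genes, in place of 48.0%, were higher. Library totals of normalized values ran from 28323700 to 32667500 and are not depths; the depth of each library is unknown. The second principal component, with 18.5% of the variance, set DMSO replicate 1 apart. T-lineage markers were present: CD3D, CD3E, CD3G, CD7, LCK, BCL11B, TLX3 and CD1A were expressed in both groups, the lowest being CD1A with MB1-47 at 371 ± 25.3, while CD2 and CD5 had means of at most 49.2; PTCRA and TRBC2 were not analysed here. Of these 10 markers 5 fell with MB1-47: CD7 (-2.02), CD1A (-1.86), CD3D (-1.24), LCK (-1.17) and CD3G (-0.96). BCL11B was higher (0.26), a call lost in 6 of 16 settings, among them those without DMSO replicate 2 or 3 or MB1-47 replicate 1 or 3 (adjusted p 0.0616 to 0.12), and 4 did not pass. Of 15 markers of other lineages 7 were in the table, at summed levels of 17021 to 18629 with DMSO and 7102 to 7684 with MB1-47, mostly the B-lineage gene CD79A (16526 ± 573 and 6826 ± 391, -1.28). PECAM1, an endothelial and leukocyte adhesion gene, also fell (1168 ± 289 and 573 ± 52.8, adjusted p = 0.00099). MS4A1, MPO, CSF1R, HBB, VWF, EPCAM, KRT18 and COL1A1 were not analysed here, none of the others was at 0 in all libraries, and the part of these T-lineage and other markers in the results was not tested.

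All 3 activator E2Fs and the dimer partner TFDP1 fell with MB1-47, the repressors E2F4 and E2F7 fell, and RBL2 rose. E2F8, RB1 and RBL1 did not pass the test. Thus 7 of the 10 genes passed, against 38.1% of all genes tested. Lower values passed in 6, against 19.8% of all genes, and higher values in 1, against 18.3%. A fall of at least 2-fold was seen in 4 (E2F1, E2F2, E2F7 and TFDP1), against 5.99% of all genes. The groups did not overlap in 8 of the 10, against 49.3% of all genes. The median change of the 10 genes was -0.56. In bulk RNA, fewer cells in a phase of the cycle and less RNA per cell cannot be told apart. The calls on these 7 genes stayed past the threshold in each of 16 alternative settings.

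**Figure D1:**
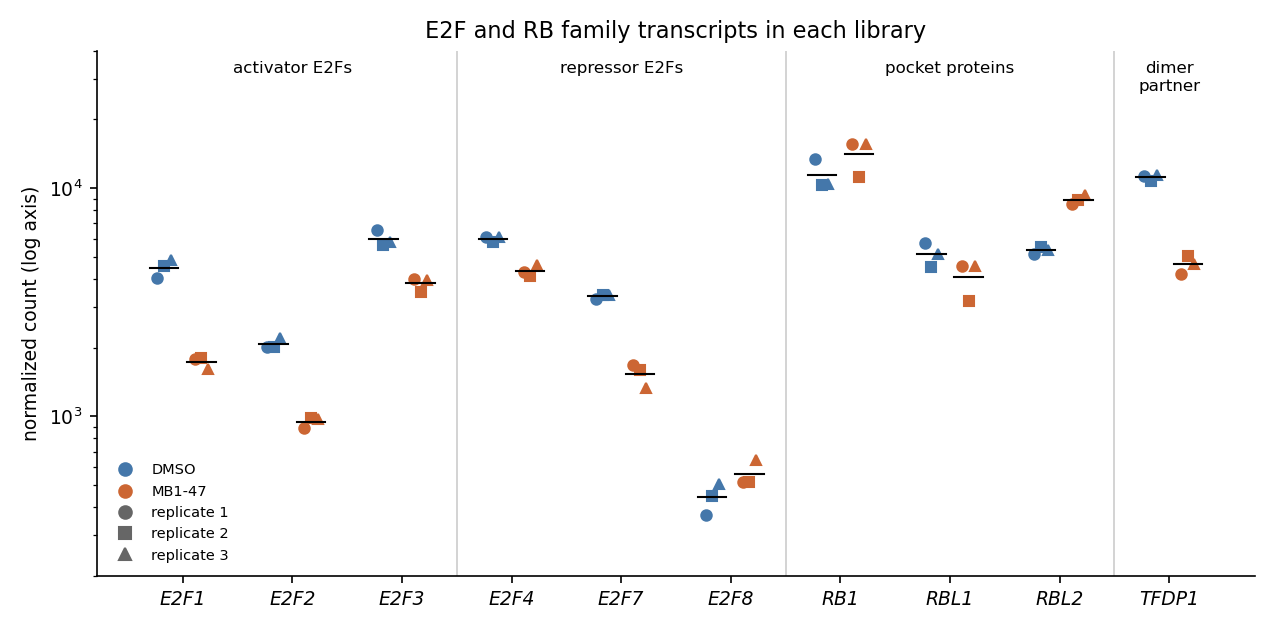
Normalized counts (log axis) of the 10 genes in each of the 6 libraries, DMSO in blue and MB1-47 in orange, with marker shapes for replicates and black lines for group means. The groups lie apart in 8 genes, and overlap in RB1 and RBL1, where MB1-47 replicate 2 sits below the other MB1-47 libraries.

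Among the activators, E2F1, the founding member of the family, was at 4049, 4541 and 4816 normalized counts with DMSO and at 1775, 1792 and 1603 with MB1-47. Every MB1-47 library was below every DMSO library. Its level fell from 4469 ± 389 to 1723 ± 104, a log2 fold change of -1.37 ± 0.10 (adjusted p = 2.62e-06). The gene lies on chromosome 20 from 33675683 to 33686404 (GRCh38), on the minus strand. E2F2, an activator with a prominent role in T cells, stood at 2008, 2006 and 2195 with DMSO and at 886, 982 and 976 with MB1-47. Its libraries were close together within each group and far apart between groups, and the change was -1.13 ± 0.11 (adjusted p = 1.68e-05). E2F3, which makes a long and a short protein from separate starts, had 6526, 5639 and 5816 with DMSO against 3987, 3516 and 3950 with MB1-47. Its groups did not overlap either, and its fall was the smallest of the 3 activators, at -0.65 ± 0.09 (adjusted p = 0.000261). The table sums the E2F3 transcripts, so the long and short forms were not separated. A pseudogene, E2F3P1, had a mean of 45.5 ± 10.2 with DMSO and 41.3 ± 9.21 with MB1-47, small beside E2F3, whose reads it can share.

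TFDP1, which encodes DP1, the partner that E2F1 to E2F6 need to bind DNA, fell from 11167 ± 369 to 4647 ± 423. Its libraries were at 11333, 10745 and 11423 with DMSO and at 4217, 5063 and 4660 with MB1-47. This was a 2.40-fold lower level with no overlap (-1.27 ± 0.09, adjusted p = 1.68e-06). TFDP2, which encodes the other widely expressed partner and was not among the 10 genes, changed far less: 13743, 13149 and 14454 with DMSO and 11735, 12052 and 11309 with MB1-47 (-0.24 ± 0.07, adjusted p = 0.0275). The TFDP2 call was lost in 7 of 16 settings. Among them were those without DMSO replicate 1 (adjusted p = 0.0619) or 3 (0.116) and without MB1-47 replicate 1 (0.0672) or 3 (0.103). Over all 16 settings its adjusted p ran from 0.0052 to 0.566. With quantile normalization TFDP2 changed by -0.06, and with equal library totals by -0.11. TFDP1 over TFDP2, as a log2 difference within a library, was -0.30 ± 0.03 with DMSO and -1.34 ± 0.12 with MB1-47. The exact permutation p of this difference, two-sided over 3 against 3 libraries, was 0.1, the smallest that this design allows. The ratio of E2F1 to TFDP1 overlapped between the groups: E2F1 over TFDP1 was -1.32 ± 0.14 with DMSO and -1.43 ± 0.16 with MB1-47, a difference that this design could not test at 0.05.

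Of the repressor E2Fs, E2F4, which acts with RBL1 and RBL2 in resting cells, was at 6099, 5787 and 6130 with DMSO and at 4282, 4120 and 4614 with MB1-47. The groups were separate and the change was modest (-0.47 ± 0.08, adjusted p = 0.00104; -0.31 with GC and length trends removed). E2F7 fell as far as E2F2: its libraries were at 3249, 3414 and 3386 with DMSO and at 1678, 1593 and 1324 with MB1-47 (-1.14 ± 0.11, adjusted p = 1.73e-05). E2F8, its closest relative, did not follow it. Its libraries were at 369, 449 and 505 with DMSO and at 514, 516 and 646 with MB1-47, which were all higher, but by little in the nearest pair. E2F8 did not pass the test (0.34 ± 0.18, adjusted p = 0.154), nor did it in any of 16 alternative settings (adjusted p 0.0589 to 0.405), while remaining on the higher side in all of them. Without DMSO replicate 1 the E2F8 change was 0.22. E2F8 over E2F7 was -2.93 ± 0.20 with DMSO and -1.45 ± 0.37 with MB1-47, a 2.79-fold shift of their ratio (exact permutation p = 0.1, the smallest possible).

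The other family members complete the repressor side. E2F6, which represses through polycomb-type complexes and does not bind pocket proteins, fell from 3939 ± 310 to 2388 ± 325 (-0.73 ± 0.12, adjusted p = 0.000558). E2F5, a partner of RBL1 and RBL2, was at 845 ± 32.2 with DMSO and 802 ± 80.7 with MB1-47 and did not pass (-0.08 ± 0.13, adjusted p = 0.67). Its small difference turned positive with equal library totals (0.05). TFDP3 was not analysed here.

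The pocket protein genes moved in unlike ways. RBL2, whose protein p130 is the main pocket protein of resting cells, was at 5136, 5544 and 5342 with DMSO and at 8507, 8846 and 9346 with MB1-47. All MB1-47 libraries were above all DMSO libraries, and RBL2 rose 1.67-fold from 5341 ± 204 to 8900 ± 422 (0.74 ± 0.08, adjusted p = 3.57e-05). The gene lies on chromosome 16 from 53433977 to 53491649. RBL1, whose protein p107 is more abundant in cycling cells, was at 5732, 4494 and 5151 with DMSO and at 4533, 3207 and 4537 with MB1-47. The groups overlapped, and RBL1 did not pass (-0.34 ± 0.14, adjusted p = 0.0859). Without MB1-47 replicate 2 it changed by -0.17. RBL1 passed with the replicate number as a block (adjusted p = 0.0148) and with trends on GC content and length removed (-0.51, adjusted p = 0.00769). RB1, the retinoblastoma gene, was at 13479, 10344 and 10431 with DMSO and at 15633, 11214 and 15584 with MB1-47, again with overlap (0.30 ± 0.14, adjusted p = 0.116). RB1 passed as higher in 5 of 16 settings. These were the settings without DMSO replicate 1 (0.43, adjusted p = 0.0329) or MB1-47 replicate 2 (0.46, adjusted p = 0.0105), with quantile normalization (0.48), with equal library totals (0.43) and with the block. With GC and length trends removed it changed by 0.09 (adjusted p = 0.58).

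**Figure D2:**
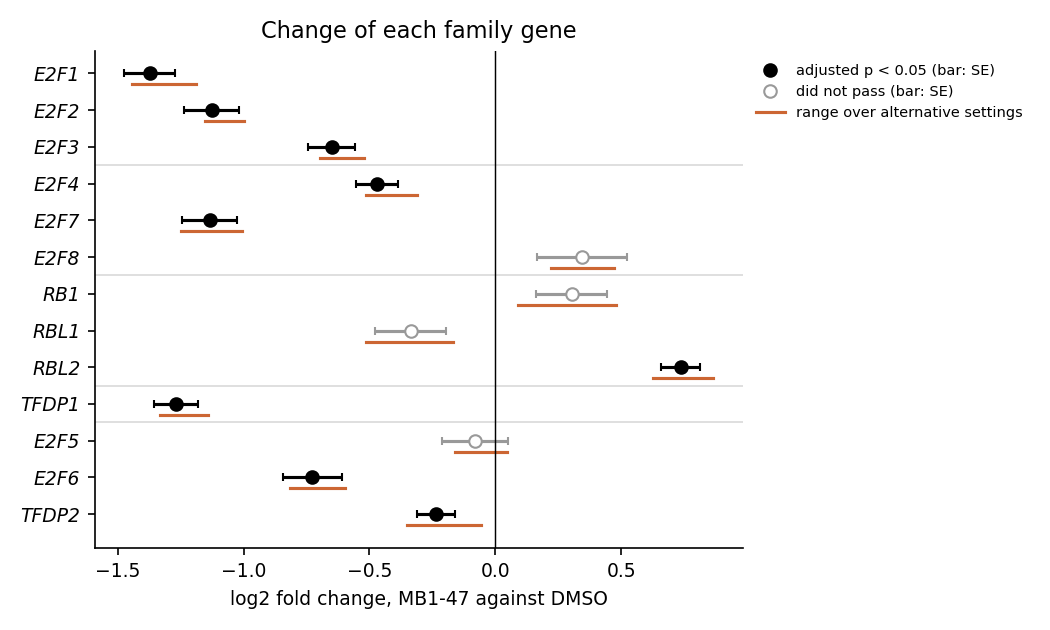
Log2 fold change of MB1-47 against DMSO for the 10 genes and for E2F5, E2F6 and TFDP2, with SE bars; filled points passed an adjusted p of 0.05, and orange lines span the 16 alternative settings. RBL2 alone among filled points lies above 0, at 0.74, and E2F1 is lowest, at -1.37.

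RB1 and RBL1 varied most of the 10 genes among MB1-47 libraries, with coefficients of variation of 17.9% and 18.7%, and the pair deviated together. In MB1-47 replicate 2 RB1 lay at -0.32 and RBL1 at -0.33 from their group means on the log2 scale. In DMSO replicate 1 both were above their means, by 0.25 and 0.17. The median of the signed deviations of all genes was -0.023 to 0.015 over the libraries. Being signed, this median does not show how far a typical gene deviated. RB1 and RBL1 also have the lowest GC content of the 10 genes by the longest coding transcript, 37.3% and 40.0%, against 62.5% for E2F1. Their distance from each other varied less than either level: RB1 over RBL1 was 1.15 ± 0.12 with DMSO and 1.79 ± 0.01 with MB1-47, with no overlap (exact permutation p = 0.1). RBL2 over RBL1 moved from 0.07 ± 0.23 to 1.14 ± 0.29, a 2.10-fold shift, and every MB1-47 library was above every DMSO library. RBL2 over RB1 moved from -1.09 ± 0.27 to -0.65 ± 0.28. The 3 ratios each had the smallest p that the design allows, 0.1 by an exact permutation test, so none can fall below 0.05. They do not depend on how libraries are scaled to each other.

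Of the activators, repressors and pocket proteins set side by side, the activators had the lowest mean change. The mean change was -1.05 over E2F1, E2F2 and E2F3, -0.42 over E2F4, E2F7 and E2F8, and 0.23 over the pocket proteins. Within a library, the mean log2 level of the activators minus that of the repressors was 0.95, 0.84 and 0.85 with DMSO and 0.25, 0.29 and 0.22 with MB1-47. Activators minus pocket proteins were at -0.97, -0.78 and -0.74 with DMSO and at -2.20, -1.89 and -2.25 with MB1-47. Both differences were lower in all MB1-47 libraries. Against repressors and pocket proteins together, the activators changed by -0.96. That difference is a description without a test, since the genes were chosen with earlier results known. It rests on unlike members: E2F7 fell about as far as E2F2, RBL2 rose, and E2F8, at 0.34, did not pass. For single pairs, E2F1 over E2F4 moved from -0.43 ± 0.14 to -1.33 ± 0.17, and E2F1 over RBL2 from -0.26 ± 0.10 to -2.37 ± 0.15, a ratio 0.232 times that with DMSO (exact permutation p = 0.1 for each).

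**Figure D3:**
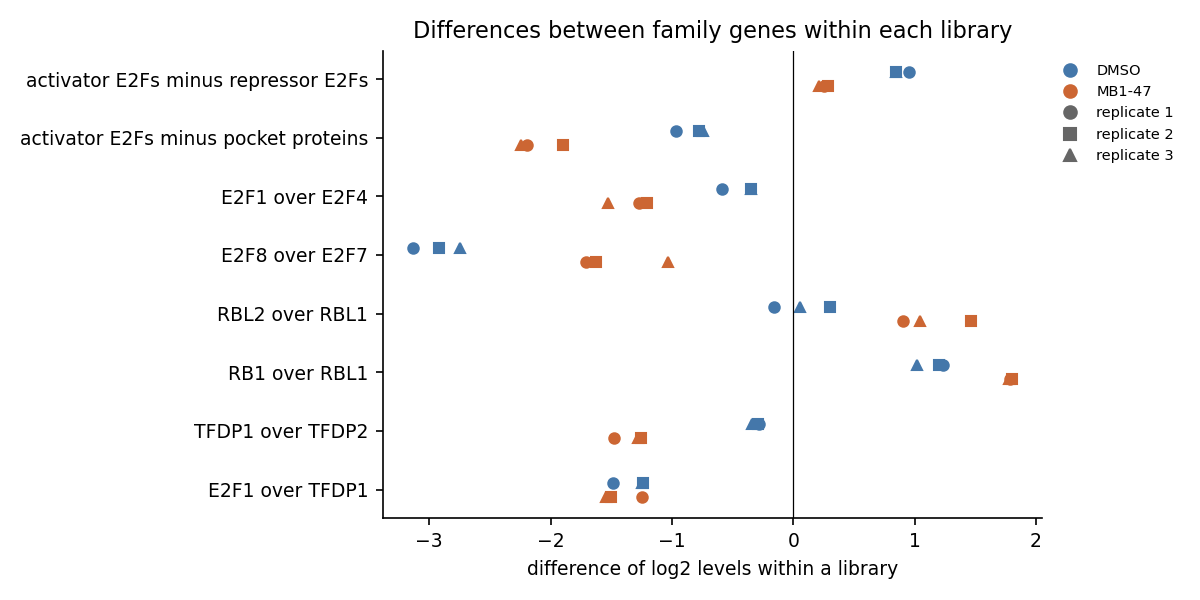
Differences of log2 levels between genes or gene groups within each library, DMSO in blue and MB1-47 in orange, shapes for replicates. E2F1 over TFDP1 overlaps between the groups, and each of the other 7 differences is separate.

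To order the genes by level, normalized counts were divided by the length of the longest coding transcript in GENCODE 29, an approximation because the transcripts in use are unknown. With DMSO, TFDP1 was highest at 4217 ± 139 per kb and E2F8 lowest at 125 ± 19.5. Between them stood E2F4, RB1, E2F1, E2F3, RBL2, RBL1, E2F7 and E2F2, in that order. Only E2F4 (2865 ± 90.7) and RB1 (2382 ± 372) overlapped as neighbours. With MB1-47, RB1 was highest at 2951 ± 529 per kb, followed by E2F4 (2070 ± 120), RBL2 (1814 ± 86.1) and TFDP1 (1755 ± 160). RBL2 and TFDP1 could not be ranked against each other, nor could E2F3, RBL1 and E2F1 in neighbouring pairs, nor E2F2 and E2F8. E2F1 went from 1785 ± 155 per kb, above RBL2 at 1089 ± 41.6, to 688 ± 41.7, below it.

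**Figure D4:**
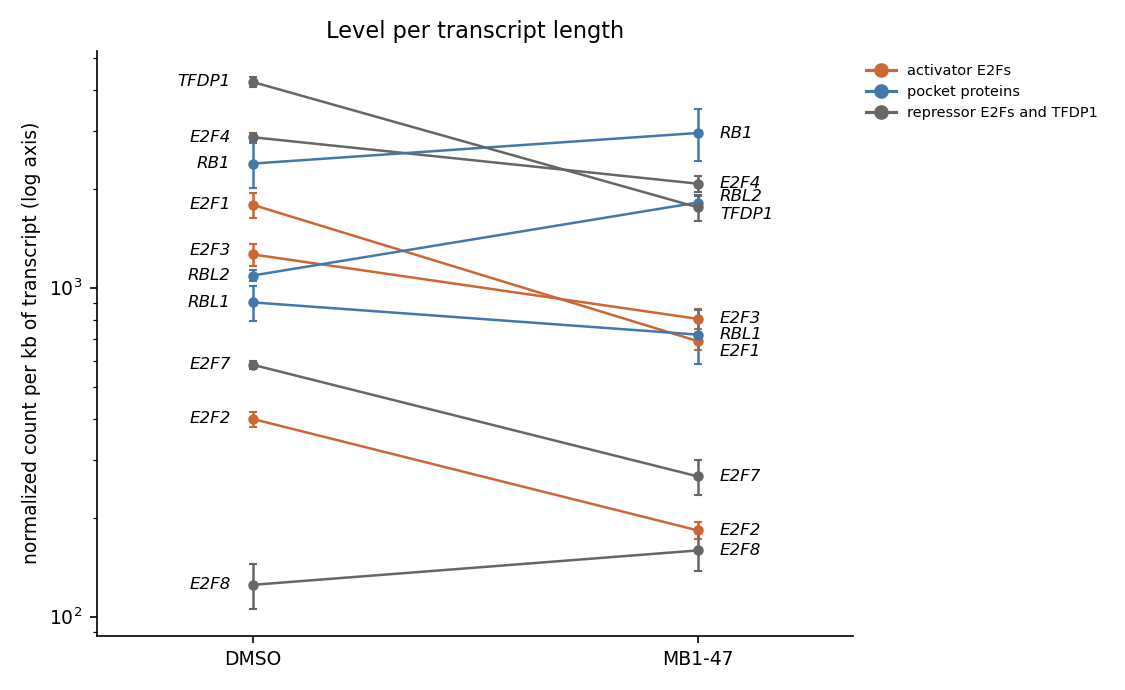
Normalized count per kb of the longest coding transcript (log axis), mean and SD of 3 libraries in each group, lines joining the same gene. RBL2 rises past E2F3 and E2F1, and TFDP1 moves from the highest place to one beside RBL2.

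Several E2F genes are known to carry E2F sites in their own promoters, and the reference sequence was searched for them. The search used the 250 bases before each RefSeq transcript start (GRCh38.p14) and 4 forms of the E2F consensus, TTTCCCGC, TTTCGCGC, TTTGCCGC and TTTGGCGC, on both strands; these forms cannot overlap each other on a strand. A match was found in 2.79% of 35116 windows. Of the 10 genes 9 had at least 1 window, E2F8 had none, and 5 had a match: E2F1, E2F2, E2F3, TFDP1 and RBL1. The first 4 fell with MB1-47 and RBL1 did not pass. E2F4, E2F7 and RBL2, which changed, had no match in their windows. The only RB1 window lies 172724 bases inside the gene, away from its main start, so its promoter was not searched. E2F3 had a match in 1 of its 2 windows, and the window without one lies 1708 bases inside the gene. RBL2 has its windows 494 and 1642 bases inside the GENCODE 29 gene. A match is a run of letters and not a measured site.

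The windows with matches are shown 5′ to 3′ on the gene's strand, with matches in capitals, beside that of E2F7, a gene that fell without a match; the TFDP1 window is shown without its last bases, which lie inside the gene. They are E2F1 (chr20:33686386-33686635, minus strand), E2F2 (chr1:23531234-23531483, minus strand), E2F3 (chr6:20401629-20401878, plus strand), TFDP1 (chr13:113584503-113584745, plus strand), RBL1 (chr20:37095998-37096247, minus strand) and E2F7 (chr12:77065570-77065819, minus strand).
E2F1: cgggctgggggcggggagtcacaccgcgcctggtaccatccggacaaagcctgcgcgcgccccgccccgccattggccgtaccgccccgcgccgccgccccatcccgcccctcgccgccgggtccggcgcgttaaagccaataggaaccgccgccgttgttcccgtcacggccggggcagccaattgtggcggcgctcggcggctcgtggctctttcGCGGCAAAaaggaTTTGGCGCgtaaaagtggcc
E2F2: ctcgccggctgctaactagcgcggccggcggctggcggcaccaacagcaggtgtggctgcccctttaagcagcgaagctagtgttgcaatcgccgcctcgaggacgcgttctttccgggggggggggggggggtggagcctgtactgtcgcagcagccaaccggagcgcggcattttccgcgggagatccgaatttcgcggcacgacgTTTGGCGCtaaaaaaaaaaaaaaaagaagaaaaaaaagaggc
E2F3: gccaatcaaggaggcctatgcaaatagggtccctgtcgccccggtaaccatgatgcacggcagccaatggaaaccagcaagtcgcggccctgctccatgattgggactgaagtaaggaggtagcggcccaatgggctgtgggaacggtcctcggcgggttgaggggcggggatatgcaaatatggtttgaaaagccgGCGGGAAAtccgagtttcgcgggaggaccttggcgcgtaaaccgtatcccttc
TFDP1: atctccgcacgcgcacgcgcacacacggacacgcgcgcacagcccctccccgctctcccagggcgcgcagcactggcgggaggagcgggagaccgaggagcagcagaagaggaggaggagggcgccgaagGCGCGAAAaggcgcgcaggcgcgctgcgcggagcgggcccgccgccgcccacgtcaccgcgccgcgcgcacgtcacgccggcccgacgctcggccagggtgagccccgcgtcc
RBL1: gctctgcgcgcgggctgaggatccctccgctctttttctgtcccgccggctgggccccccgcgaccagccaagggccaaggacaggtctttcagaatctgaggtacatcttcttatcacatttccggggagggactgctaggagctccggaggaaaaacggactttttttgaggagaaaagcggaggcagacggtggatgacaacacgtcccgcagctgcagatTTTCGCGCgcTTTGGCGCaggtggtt
E2F7: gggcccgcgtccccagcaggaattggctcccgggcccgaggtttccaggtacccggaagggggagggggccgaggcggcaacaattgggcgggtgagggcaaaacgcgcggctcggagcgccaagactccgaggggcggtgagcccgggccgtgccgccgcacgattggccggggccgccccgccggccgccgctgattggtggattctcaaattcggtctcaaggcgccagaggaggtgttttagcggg
E2F1 holds 2 matches, one on each strand, from 33 to 26 and from 20 to 13 bases before the start. RBL1 also holds 2, from 26 to 19 and from 16 to 9 bases before the start, both on the gene's strand. In E2F2 the match lies 42 to 35 bases before the start, in E2F3 53 to 46 and in TFDP1 120 to 113, the last 2 on the strand opposite to the gene. All but that of TFDP1 thus lie within the last 53 bases. Over all 9774 tested genes with a window, 5.67% had a match. Of the 554 with a match 30.0% passed as lower and 18.4% as higher, against 20.8% and 19.5% of the 9220 without, shares given as a description.

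Genes known to be switched on by E2F in late G1 and S phase fell almost without exception. Of 50 such genes 48 were lower, none was higher and 2 (LIG1 at -0.42 and BRCA1 at -0.35, both named after their values were seen) did not pass; with equal library totals 45 were lower. LIG1 changed by -0.23 without DMSO replicate 3 and passed without DMSO replicate 1 (-0.60, adjusted p = 0.0132). BRCA1 changed by -0.14 without DMSO replicate 1 and by -0.20 without MB1-47 replicate 2, and passed with GC and length trends removed (-0.54, adjusted p = 0.0278). The median of the 50 genes was -1.11, against 0.02 over all genes tested, of which 19.8% were lower. This list, like the others, was chosen with earlier results of these data known. UNG, a uracil-removing DNA repair enzyme, fell from 4911 ± 222 to 839 ± 11.8 (-2.55 ± 0.10), and its promoter window is one of 16 among 44 in this list that hold a match. MCM4, a helicase subunit, changed by -2.31 ± 0.10, and UHRF1 and GINS2 by -2.14 ± 0.09 and -2.14 ± 0.23. By contrast, G2/M genes, many of which DREAM binds through a different promoter element, had 7 higher, 3 lower and 18 not passing of 28. The share called was near that of all genes tested, 38.1%, of which 18.3% were higher and 19.8% lower. The median of the G2/M genes was 0.14, and with equal totals 11 were higher and 0 lower. CDC25C, a mitotic phosphatase, CENPE, a kinetochore motor, AURKA, a mitotic kinase, and NUF2, a kinetochore protein, were higher by 0.72, 0.69, 0.58 and 0.45. BUB1, BUB1B and KIF11 were lower by small amounts (-0.24, -0.35 and -0.27), and each call was lost in 6 to 8 of the 16 settings, equal library totals among them. BUB1 did not pass without any 1 library other than DMSO replicate 2 (adjusted p 0.0593 to 0.11), BUB1B without DMSO replicate 2 or 3 or MB1-47 replicate 1 or 3 (0.0728 to 0.14), and KIF11 without DMSO replicate 1 or 3 or MB1-47 replicate 2 (0.0641 to 0.0884).

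**Figure D5:**
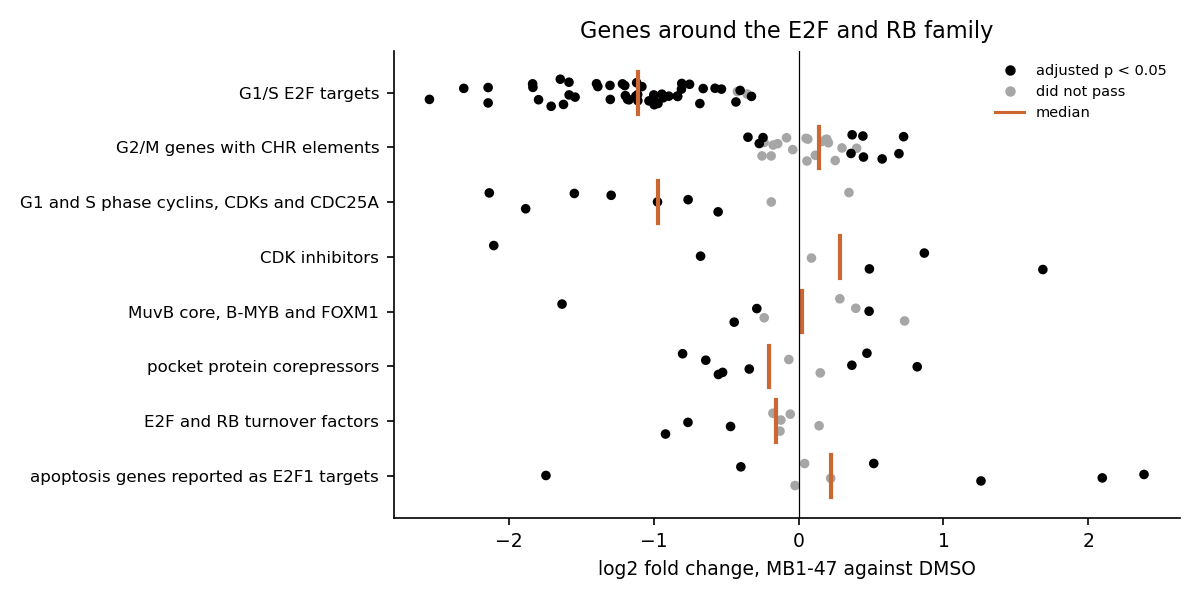
Log2 fold changes of genes around the family, a point per gene, black where the adjusted p was under 0.05, with the median of each list in orange. The G1/S targets lie below 0, with a median of -1.11, while the G2/M genes are centred near 0.14.

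Most genes for the kinases that phosphorylate the pocket proteins, and for their cyclins, were lower, against 19.8% of all genes tested. Of 9 tested genes for G1 and S phase cyclins, CDKs and CDC25A, 7 were lower, none higher, and CCND2 (0.35) and CCNA2 (-0.19), named after their values were seen, did not pass; CCND1 was below the filter. CCND2 was low, at 32.6 ± 14.6 with DMSO and 39.8 ± 7.62 with MB1-47. Its change was 0.13, 0.23, 0.68 and 0.21 without DMSO replicate 1, 2 or 3 or MB1-47 replicate 3. CCNA2 changed by -0.12 without DMSO replicate 1 or MB1-47 replicate 2. CCNA2 passed with GC and length trends removed (-0.26, adjusted p = 0.0224). CCND3, a D-type cyclin gene also named after its values were seen, was among the 7 lower genes (11874 ± 753 to 7034 ± 936, -0.76). CDK6, a partner of D-type cyclins and also named after its values were seen, counts among the 7 lower genes (-0.55), but with quantile normalization it changed by 0.16 and did not pass (adjusted p = 0.214). CCNE2 and CCNE1, the E-type cyclins and themselves E2F targets, changed by -2.13 ± 0.11 and -1.88 ± 0.21. CDC25A, the phosphatase that activates CDK2, changed by -1.55 ± 0.11 and CDK4 by -1.29 ± 0.09. CDK inhibitors went both ways, with 3 higher, 2 lower and 1 not passing of 6, against 18.3% higher and 19.8% lower over all genes. CDKN1B, which encodes p27 and holds cyclin E and CDK2, rose from 2162 ± 161 to 6945 ± 151 (1.69 ± 0.09, adjusted p = 4.7e-07). CDKN2D and CDKN2C, inhibitors of CDK4 and CDK6, rose by 0.87 ± 0.23 and 0.49 ± 0.11. CDKN1A, which encodes p21, fell from a low level of 91.3 ± 24.3 to 20.9 ± 7.67. CDKN2A was expressed at 2629 ± 281 with DMSO and fell to 1660 ± 330 (-0.68 ± 0.15; -0.37 with GC and length trends removed); gene-level values do not separate its products p16 and ARF.

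Of the MuvB core genes and their partners, 3 of 8 were lower, 1 was higher and 4 did not pass. Over all genes tested 19.8% were lower and 18.3% higher. MYBL2, the B-MYB factor that replaces pocket proteins on MuvB in S phase and is itself repressed by E2F4 complexes, fell from 19770 ± 1863 to 6375 ± 527 (-1.63 ± 0.09). RBBP4, a histone-binding subunit, changed by -0.44 ± 0.10, and LIN54, the DNA-binding subunit, by 0.49 ± 0.12. FOXM1, the partner in G2, changed by -0.29 ± 0.10, a call lost in 8 of 16 settings, those without any 1 library other than MB1-47 replicate 3 among them (adjusted p 0.0508 to 0.124). The list of pocket protein corepressors also held the kinase gene DYRK1A. The list was mixed, with 5 lower, 3 higher and 2 not passing of 10, against the same shares of all genes. RBBP7, RBBP8 and the deacetylases HDAC2 and HDAC1 were lower by -0.80, -0.64, -0.55 and -0.34, as was SUV39H1 (-0.52), whose call was lost in 4 settings, among them those without DMSO replicate 3 or MB1-47 replicate 1 (adjusted p 0.0818 and 0.08). ARID4A and ARID4B, RB-binding proteins of the SIN3 complex, were higher by 0.82 and 0.47, and DYRK1A, the kinase that promotes DREAM assembly, by 0.37. DYRK1A changed by 0.10 with GC and length trends removed and then did not pass.

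Of the partners of E2F6, 2 of 10 were lower (CBX3 at -0.59 and L3MBTL2 at -0.57), 2 higher (YAF2 at 0.59 and RYBP at 0.35, the latter lost in 6 settings, among them those without DMSO replicate 2 or 3 or MB1-47 replicate 1 or 3, with adjusted p of 0.0678 to 0.0994) and 6 did not pass. In that list, and in the next, the share called was near the 38.1% of all genes tested. Turnover factors of E2F and pocket proteins were lower in 3 of 8 cases and none was higher. These were SKP2, the F-box protein that targets p27 and p130 (-0.92 ± 0.12), and SKP1 (-0.76 ± 0.09) and CUL1 (-0.47 ± 0.09), of the same complex. Apoptosis genes reported as E2F1 targets did not move as one: 4 of 9 were higher, 2 lower and 3 did not pass, while HRK was below the filter. Over all genes tested 18.3% were higher and 19.8% lower. BMF (157 ± 38.1 to 813 ± 102) and BBC3 (45.6 ± 25.2 to 183 ± 26.1), both activators of cell death of the BCL2 family, rose, as did CASP9 (1.26) and APAF1 (0.52). TP73, a p53 relative and a well-known E2F1 target, fell from 425 ± 104 to 124 ± 4.57, and PMAIP1 by 0.40 on the log2 scale.

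MICOS10 and GTPBP4 were among the genes whose profiles over the 6 libraries were most like that of E2F1. Among 10239 other genes with a mean of at least 100, their log2 values, centred on each gene's own mean, differed from those of E2F1 by a mean of 0.04 per library. Among the 9 other family genes the nearest was E2F7, at 0.12, followed by E2F2, at 0.13. For RBL2 the nearest genes were DGKE, INPP4B and COPA, at 0.03 each. INPP4B, for example, stood at 3740, 4058 and 3931 with DMSO and at 6117, 6036 and 6676 with MB1-47. Of the family, E2F8 lay nearest to RBL2, at 0.20.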

How the data were processed

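The deposited table holds normalized counts, used as a signal that is never negative, in 6 libraries. Per the submitters' processing notes, the authors used kallisto 0.44.0 and DESeq with GRCh38.p13; no source used here gives the annotation or filters. kallisto shares reads between similar transcripts, so genes with near-identical copies are uncertain. With the best step per library, 60.5% to 65.9% of low values came within 0.1 of whole multiples; whole reads were thus not recovered, and no count test was run. Groups came from sample titles.

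Genes with a mean of at least 10 (13465) were fitted on log2(value + 1) with limma 3.58.1 in R 4.3.3, with an intensity trend, Benjamini-Hochberg adjustment and a threshold of 0.05, after the steps were tested on simulated data. Single ratios had exact two-sided permutation tests. Alternatives were pseudocounts of 0.5 and 5, filters at 0 and 50, trimmed-mean-of-M-values scaling of the deposited values, quantile normalization, equal totals, no trend, a replicate block and each library left out. Removal of GC and length trends was chosen after seeing the data. Gene positions are from GENCODE 29 on GRCh38 and promoter sequences from RefSeq (GRCh38.p14). Figures used matplotlib 3.10.9 (Python 3.11.15).

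The 10 genes and the lists were chosen with earlier results of these data known. Named were the 10 genes, E2F5, E2F6 and TFDP2, from each list up to 4 passing genes of mean 50 or more, by size of change, every gene of a direction with 5 or fewer, and the 3 genes nearest in profile to E2F1 and to RBL2, of which one is not reported here.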

Additional observations from a re-analysis of the deposited data

How the results depend on the processing

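For the 10 genes, 153 of 160 values under alternative settings kept their direction and their side of the threshold, and 7 passed where the reported value did not, all of RB1 and RBL1. No value of the 10 genes changed direction. E2F5 changed sign, to 0.048 with equal library totals and 0.014 with GC and length trends removed, and CDK6 to 0.164 with quantile normalization. The activators minus the repressors and pocket proteins changed by -0.82 with GC and length trends removed, in place of -0.96, and by -1.02 to -0.91 when 1 library was left out. Apart from genes given in the report, removal of GC and length trends moved LIN54 to 0.29, ARID4B to 0.28, HDAC2 to -0.83, CENPE to 0.37, APAF1 to 0.33, INPP4B to 0.40, RYBP to 0.14 and KIF11 to -0.47. Equal totals moved HDAC1 to -0.21, FOXM1 to -0.16, BUB1 to -0.12, BUB1B to -0.22 and KIF11 to -0.14. Quantile normalization moved CBX3 to -0.39, BUB1 to -0.16 and KIF11 to -0.12. RBBP4 and APAF1 missed the threshold without an intensity trend. The number of genes called ran from 4172 to 4746 when 1 library was left out and was 4261 without an intensity trend, against 5125. With the replicate block, 5246 genes and 9 of the 10 were called. Same-numbered libraries did not deviate together (correlations of deviations 0.02, 0.06 and 0.01 over genes), and not every library correlated best with its own number, so the numbers were not taken to pair the libraries. Depth is unknown, so no counting error can be given for low genes such as E2F8 and CDKN1A.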
